A study of Mus musculus with 9 samples.

Results

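The genes described here are p53 and 8 of its target genes. They are Trp53, which encodes p53, and Mdm2, Ccng1, Cdkn1a, Bax, Eda2r, Trp53inp1, Phlda3 and Zmat3. They were taken by gene symbol, 9 of 32285 mouse genes in the deposited feature list.

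Single-cell 5′ RNA libraries came from the brains of 9 mice aged 6 to 8 weeks. The 5 tumor mice carried NestinCreERT2;Fus1, in which a conditional ZFTA–RELA fusion is switched on by a Cre recombinase that the Nestin promoter drives in embryonic radial glia, and they bore ependymomas. The 4 control mice were labeled NestinCreERT2;TdT, so both groups carried the Cre allele but only the tumor mice carried the fusion allele. The TdT of the label was named for controls only. A tdTomato entry of the feature list had UMIs in 253 to 783 cells of each control and in 0 cells of each tumor. Tissue was dissociated mechanically and with a tumor dissociation kit, enriched on 40% Percoll, stained with DAPI and for Ter119 and sorted. The labels gave no batch, and did not state that each library was a separate animal, so each library is called a mouse here and the p-values measure the spread between these libraries.

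p53 is a transcription factor that is held at low levels by MDM2, an E3 ubiquitin ligase, and that accumulates after DNA damage and other stresses. It acts as a tetramer on paired decamers in the DNA. Its targets include the arrest gene Cdkn1a (p21), the pore-forming death gene Bax and Mdm2 itself, which closes a feedback loop. p53 protein is regulated mainly after translation, so its mRNA level is not a measure of its activity, and several of the targets are also induced by other factors. ARF, 1 of the products of Cdkn2a, inhibits MDM2 and so lies upstream of p53.

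All 9 genes were annotated as protein coding in GENCODE vM21 on GRCm38. Trp53 lies at chr11:69580359-69591873, Mdm2 at chr10:117688875-117710758, Ccng1 at chr11:40748552-40755311, Cdkn1a at chr17:29090976-29100727 and Bax at chr7:45461697-45466898. Eda2r lies at chrX:97333840-97377216, Trp53inp1 at chr4:11156431-11174379, Phlda3 at chr1:135766119-135769136 and Zmat3 at chr3:32334792-32366014. The exons of Cdkn1a share 273 bases with AC167363.2 on the opposite strand, and those of Bax share 192 bases with Gm45808 on the same strand; neither of these neighbors was in the feature list.

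The promoters were searched for the p53 consensus site, a pair of decamers with a spacer of 0 or 1 bases, allowing 1 mismatch over the 20 positions. The decamer equals its own reverse complement, so both strands were covered. RefSeq gave windows of 250 bases before to 50 bases after the start, on GRCm38.p6, for 7 of the 9 genes, and Zmat3 and Trp53inp1 were named only. Cdkn1a, Ccng1 and Bax each held a site, and 58 of all 32851 windows of the same length did (0.177%). The 250 bases before the start of these 3 genes are shown, with the match to the consensus site in capitals. Cdkn1a is given at chr17:29090729-29090978 on the plus strand, with the site at −51 to −32 from the start. Ccng1 is given at chr11:40755287-40755536 on the minus strand, with the site at −195 to −176. Bax is given at chr7:45466899-45467148 on the minus strand, with the site at −212 to −192.
Cdkn1a: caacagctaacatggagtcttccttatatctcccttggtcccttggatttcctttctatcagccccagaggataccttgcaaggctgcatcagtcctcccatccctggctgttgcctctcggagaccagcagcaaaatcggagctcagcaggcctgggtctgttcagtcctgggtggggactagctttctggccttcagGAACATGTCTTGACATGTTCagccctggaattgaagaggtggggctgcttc
Ccng1: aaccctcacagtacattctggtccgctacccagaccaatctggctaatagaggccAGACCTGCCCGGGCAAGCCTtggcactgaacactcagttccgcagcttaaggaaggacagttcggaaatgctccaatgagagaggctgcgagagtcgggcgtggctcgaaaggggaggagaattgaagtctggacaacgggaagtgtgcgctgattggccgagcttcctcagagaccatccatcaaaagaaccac
Bax: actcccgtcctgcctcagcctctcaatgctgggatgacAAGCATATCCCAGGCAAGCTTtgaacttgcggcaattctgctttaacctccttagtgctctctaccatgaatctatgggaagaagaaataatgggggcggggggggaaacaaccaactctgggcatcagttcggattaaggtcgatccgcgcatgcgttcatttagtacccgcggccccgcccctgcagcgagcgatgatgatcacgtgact
RefSeq gave Cdkn1a a second window, at a start further downstream, whose best match had 5 mismatches and which held no site. Single decamers were common, in 8.36% of all windows. A match is only a match of letters, and a window without one says nothing of binding elsewhere in the gene.

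After filtering, 35313 cells were kept, 3987 to 5907 per control mouse and 1577 to 5114 per tumor mouse, with 5900868 to 37615459 UMIs (unique transcript molecules) in the cells of a mouse. Each mouse was 1 replicate, and UMIs were summed over its cells and given as CPM, counts per 1000000 UMIs of that sum. The control libraries held many cells that resembled free RNA, the pooled profile of 3000 low-count barcodes per library. These barcodes had medians of 559 to 1338 UMIs per library and were not shown to be empty droplets. In tumor 3, with 9001 barcodes in all, they were also among the barcodes considered as cells. Of 11 neuron markers, the summed level in control cells gated as neurons was 78.1% to 83.4% of that in the free RNA of the same mouse, against 139% to 392% in tumor neurons. Over all kept cells it was 73.1% to 78.1% in controls and 32.6% to 81.6% in tumors. For this reason several class levels are given below beside the free RNA of the same mouse. Where free RNA was subtracted, its share in a class was read from the neuron markers, with all their UMIs taken as free RNA. A class that makes these markers itself would therefore lose some of its own transcripts, which was not tested. The feature list of control 4 matched the others over all 32285 mouse genes but not in the added transgene entries, which were read in the order of the other lists, and its barcode list was shorter than its matrix. Its cells were therefore identified by matrix column. With no batch label, library preparation and the tumor effect cannot be told apart.

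Over all kept cells, 8 of the 9 genes differed between tumor and control brain. 7 were higher and 1, Zmat3, was lower. Of the 17594 genes tested by edgeR, 61.7% differed, 32.3% upward and 29.4% downward, so a call by itself was common. The median log2 fold change of the 9 genes was 2.23, against 0.04 over all genes tested. These sums mix cell types: cells gated as neurons made up most of the control cells, and cells with a Luc, IRES or fusion UMI most of tumor 4, and in such sums a change in the mix of cells and a change within a cell cannot be told apart.

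Trp53 was measured at 21.6, 19.6, 18.8 and 21.5 CPM in the 4 controls and at 32.9, 83.6, 58.0, 104 and 106 CPM in tumors 1 to 5. All 5 tumors lay above all controls, and tumor 1 was the lowest of them. The means were 20.4 ± 1.37 (SD, n = 4) and 76.8 ± 31.2 CPM (SD, n = 5), a log2 fold change of 2.23 (SE 0.40, adjusted p = 0.00136).

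Mdm2 and Ccng1 are targets that act back on p53, MDM2 by marking it for degradation and cyclin G1 by recruiting a phosphatase to MDM2. Mdm2 stood at 38.5, 37.7, 33.4 and 32.8 CPM in controls and at 44.9, 38.1, 45.2, 39.3 and 38.7 CPM in tumors. The groups overlapped, with control 1 at 38.5 above tumor 2 at 38.1 CPM, and the log2 fold change was 0.46 (SE 0.13, adjusted p = 0.0143), which was lost without control 4 (adjusted p = 0.0592) and when libraries were scaled by their totals alone (log2 0.21, adjusted p = 0.21). Ccng1 ranged from 24.0 to 30.0 CPM in controls and from 21.0 to 32.2 CPM in tumors. The groups overlapped over most of their range, with a log2 difference of 0.21 (95% interval −0.22 to 0.64) that turned to −0.05 with library totals alone.

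Cdkn1a, which encodes the cyclin-dependent kinase inhibitor p21, had the largest fitted fold change of the 9 genes over all kept cells. Its level was 9.66, 7.77, 6.16 and 6.10 CPM in controls and 173, 253, 112, 241 and 174 CPM in tumors. The lowest tumor, tumor 3, lay far above the highest control. The log2 fold change was 4.99 (SE 0.40, adjusted p = 7.70e-05), from 7.42 ± 1.68 (SD, n = 4) to 190.4 ± 57.5 CPM (SD, n = 5).

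Bax, whose product permeabilizes the mitochondrial outer membrane, was at 53.7 to 58.4 CPM in the 4 controls and at 119.8, 243, 146, 465 and 319 CPM in the tumors. Tumor 4 was the highest and tumor 1 the lowest, with no overlap with controls, and the log2 fold change was 2.55 (SE 0.47, adjusted p = 0.0016). Eda2r, a receptor of the tumor necrosis factor family, was sparse. It gave 4, 3, 1 and 1 UMIs in controls and 10, 28, 6, 101 and 62 in tumors. Summed over mice, 207 UMIs in tumors against 9 in controls gave a ratio of 19.6 per UMI of the kept cells (95% interval 10.1 to 43.4, counting error only), and edgeR gave a log2 fold change of 4.28 (SE 0.68, adjusted p = 0.00073). Trp53inp1, which encodes a p53-induced nuclear protein with a role in autophagy, was at 7.26 to 8.50 CPM in controls and at 26.9, 21.1, 24.8, 17.4 and 25.5 CPM in tumors. The tumors lay close together and apart from the controls, with a log2 fold change of 1.77 (SE 0.16, adjusted p = 1.00e-04).

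Phlda3, which encodes a pleckstrin-homology protein that restrains AKT, divided the tumors. It stood at 17.4, 18.7, 15.0 and 16.4 CPM in controls, at 29.3 and 38.9 CPM in tumors 1 and 3, and at 141, 178 and 114 CPM in tumors 2, 4 and 5. All tumors were above the controls, and the log2 fold change was 2.94 (SE 0.62, adjusted p = 0.00287). Zmat3, an RNA-binding zinc-finger target, went the other way. It was at 59.1, 58.3, 49.3 and 60.0 CPM in controls and at 40.8, 30.8, 22.9, 34.1 and 28.2 CPM in tumors, without overlap. The log2 fold change was −0.59 (SE 0.20, adjusted p = 0.0282), and the call was lost when any 1 control or tumor 5 was left out (adjusted p 0.0527 to 0.0709).

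**Figure D1:**
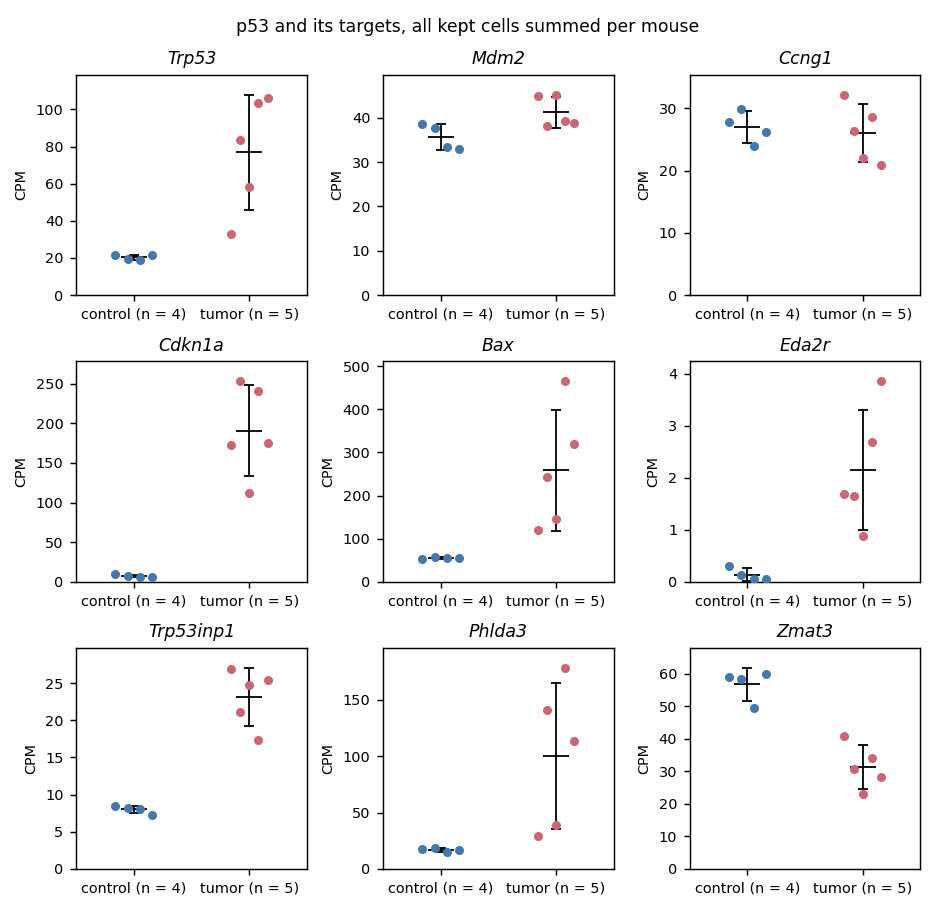
CPM of each gene over all kept cells (y axis, linear from 0), 1 point per mouse, with the mean and SD over 4 control and 5 tumor mice. The Cdkn1a levels of all tumors lie above those of all controls, the Ccng1 levels overlap and the Zmat3 levels are lower in tumors.

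In the same sums, among 32 further p53 targets, 25 differed, 21 upward and 4 downward, with a median log2 fold change of 1.73. The smallest p-values upward belonged to Ddit4, an inhibitor of mTORC1 signaling (log2 3.34, SE 0.25), the death receptor Fas (4.90, SE 0.62) and the antiproliferative gene Btg2 (3.17, SE 0.41). Downward they belonged to Tigar, a fructose bisphosphatase (−1.05, SE 0.18), the kinase Plk2 (−1.77, SE 0.31) and Ddb2, a DNA damage sensor (−1.68, SE 0.32). Of 13 regulators and relatives of p53, 12 were tested and 5 differed, with a median log2 fold change of −0.04. Both counts stand against the 61.7% of all genes called. Cdkn2a, which encodes the MDM2 inhibitor ARF and the CDK inhibitor p16, was nearly absent in controls, with 1 to 3 UMIs each, and stood at 20.8, 237, 11.7, 223 and 161 CPM in the tumors. The summed UMIs, 15183 against 8, gave a ratio of 1614 (interval 819 to 3740, counting error only), and the adjusted p was 0.00034. The checkpoint kinases Chek2 (2.78, SE 0.43) and Chek1 (1.66, SE 0.42) were higher, and Trp53bp1 (−1.40, SE 0.20) and Hipk2 (−0.61, SE 0.16) were lower. The dissociation and stress genes, many of them immediate early genes, also moved, with 9 of 10 higher in tumors and a summed level of 578 to 4850 CPM against 211 to 360 CPM in controls. Malat1 was at 17483 to 39764 CPM in tumors against 83596 to 98741 CPM in controls. Their part in the result was not tested.

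To separate cell types, cells were gated by marker genes, cells with a Luc, IRES or fusion UMI were set apart as transgene-positive, and the comparison was repeated within each class. A mouse entered a comparison with at least 20 cells of the class. Control 4 had too few endothelial cells and tumor 4 too few neurons, so these 2 comparisons had 3 controls and 4 tumors respectively. Cdkn1a and Bax passed the test in all 5 classes, Bax with limits given below in endothelial cells, oligodendrocytes and neurons. Against the free RNA of the same tumor, Bax was at 1.11 to 2.31 times in microglia, 1.20 to 2.74 times in endothelial cells, 0.92 to 1.87 times in astrocytes, 0.75 to 2.06 times in oligodendrocytes (median 0.89) and 0.78 to 1.03 times in neurons (median 0.90). The other genes did not follow them everywhere. Trp53inp1 was not tested in microglia or oligodendrocytes, and not called in endothelial cells (log2 0.55, adjusted p = 0.637) or astrocytes (0.87, adjusted p = 0.162). Mdm2 was not called in microglia (0.56, adjusted p = 0.0706), endothelial cells (1.38, adjusted p = 0.13), astrocytes (0.11, adjusted p = 0.764) or oligodendrocytes (0.35, adjusted p = 0.268). Ccng1 was called in none of the 5 classes.

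In microglia or macrophages, 7 of the genes were tested and 2 were called, against 40% of the genes tested. Cdkn1a was at 20.4, 9.75, 12.2 and 6.52 CPM in controls and at 46.2, 166, 61.4, 197 and 162 CPM in tumors. All tumors were above all controls, and the log2 fold change was 3.94 (SE 0.59, adjusted p = 0.00033). The tumor microglia, however, carried Cdkn1a at 1.05 to 1.70 times the free RNA of the same tumor, which itself held 43.9 to 129.7 CPM against 5.49 to 8.83 CPM in control free RNA. With free RNA subtracted the log2 fold change was 3.75 (adjusted p = 0.00314). Bax rose from 47.6, 107, 79.2 and 84.8 CPM to 149, 174, 135, 386 and 225 CPM (log2 1.88, SE 0.39, adjusted p = 0.0023), and every tumor lay above every control.

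Trp53 itself was not called in microglia. Its 4 control levels were 88.4, 44.9, 48.7 and 63.0 CPM and its tumor levels 40.5, 32.2, 61.4, 52.1 and 59.8 CPM, so that the groups overlapped, with a log2 difference of 0.13 (95% interval −0.43 to 0.70) that changed sign with library totals alone (−0.31) and with free RNA subtracted (−0.62). Phlda3 was at 15.2 to 34.0 CPM in controls and 5.53 to 32.5 CPM in tumors, below free RNA in every tumor. Own markers of the class summed to 17552 to 23390 CPM in controls and 40218 to 47892 CPM in tumors, and neuron markers to 3973 to 4881 against 91.4 to 1183 CPM. The stress genes summed to 595 to 1212 against 887 to 12645 CPM. Igf2, a gene at 495 to 3301 CPM in transgene-positive cells, was at 13.0 to 30.6 CPM in control and 13.0 to 684 CPM in tumor microglia. The part of these differences in the result was not tested.

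Endothelial cells held the highest control level of Cdkn1a of any class. It was at 97.1, 125 and 43.8 CPM in 3 controls, 6.26 to 17.7 times their free RNA, and at 568, 748, 519.8, 835 and 842 CPM in the tumors, 6.44 to 12.9 times theirs. The groups were far apart, with a log2 fold change of 3.16 (SE 0.38, adjusted p = 0.0029), although the control values rest on 5, 15 and 6 UMIs from 20 to 25 cells. In the tumors 67.5% to 96.2% of endothelial cells held a Cdkn1a UMI, against 20% to 41.7% in the controls. After thinning each cell to 1500 UMIs the shares were 48.2% to 71.4% and 0% to 16.7%.

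Bax was the other endothelial call, at 58.3, 91.8 and 94.9 CPM in controls and 177, 193, 146, 467 and 211 CPM in tumors. The log2 fold change was 1.61 (SE 0.45, adjusted p = 0.0381), and the call was lost without any 1 of the 3 controls (adjusted p 0.108 to 0.132) or without tumor 2 (adjusted p = 0.0515). Thus 2 of 7 genes tested were called, against 12.4% of all genes tested. Trp53 was at 19.4, 33.4 and 29.2 CPM in controls and at 51.9, 38.9, 57.4, 73.1 and 62.9 CPM in tumors, without overlap, but did not pass the adjusted test (log2 1.09, SE 0.40, adjusted p = 0.0872). Neuron markers summed to 2328 to 3108 CPM in control and 53.7 to 889 CPM in tumor endothelial cells, and the stress genes to 292 to 359 against 569 to 3613 CPM. Igf2 was at 8.35 to 58.4 CPM in control and 15.5 to 356 CPM in tumor endothelial cells. Erythroid markers reached 62601 CPM in 1 tumor.

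Oligodendrocytes gave the largest fold and the widest spread. Cdkn1a was at 0, 14.3, 0 and 9.66 CPM in the controls, from 0, 8, 0 and 3 UMIs. Tumors 1, 2 and 5 stood at 1055, 1832 and 1134 CPM, tumor 4 at 128 and tumor 3 at 29.4 CPM, the last from 9 UMIs. Every tumor was above every control, yet the tumors differed widely among themselves.

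In tumors 1, 2 and 5 a Cdkn1a UMI was found in 88.8% (Wilson 95% interval 81.8% to 93.3%), 96.4% (91.2% to 98.6%) and 75% (56.6% to 87.3%) of 116, 112 and 28 oligodendrocytes. In tumors 3 and 4 the share was 15.9% (7.93% to 29.4%) and 21.4% (10.2% to 39.5%) of 44 and 28 cells. Thinned to 1500 UMIs, the shares in tumors 1 to 5 were 73.7%, 86.6%, 2.63%, 7.14% and 60.7%, against 0% to 2.86% in controls. As a background, a Cdkn1a UMI was held by 2.05% to 2.68% of cells gated as neurons in control brain and by 5.71% to 25.2% in the tumors. The intervals cover counting error only.

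Against free RNA, tumor oligodendrocytes carried between 0.58 and 24.0 times the Cdkn1a level. In tumor 3 and tumor 4 they lay below their free RNA, which held 51.1 and 129.7 CPM. The sum over tumors was 124 times that over controls per UMI of the class (interval 69.2 to 249). It was 272 without control 2, which held 8 of the 11 control UMIs, and 75.5 without tumor 2. For the same contrast edgeR gave a log2 fold change of 6.91 (SE 1.23, adjusted p = 0.0007) and limma voom an adjusted p of 0.0563. Without tumor 1, 2, 4 or 5, or with a gate lead of 0.2, Cdkn1a did not pass the filter on low counts in this class and was not tested. Phlda3 also rose in this class, from 39.3, 30.5, 46.1 and 35.4 CPM to 168, 231, 330.3, 66.7 and 187 CPM (log2 2.56, SE 0.42, adjusted p = 0.00038), here with tumor 3 the highest and tumor 4 the lowest. Bax was at 54.7 to 80.6 CPM in controls and at 108 to 132 CPM in 4 tumors, with tumor 4 at 445 CPM (log2 1.46, SE 0.40, adjusted p = 0.0102). With a gate lead of 0.2 in place of 0.1 the Bax call was lost (log2 0.37, adjusted p = 0.29). The 3 calls were made among 5 genes tested, and 47.7% of all genes tested in oligodendrocytes were called.

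Among these cells Trp53 was too low to be tested, at 11.5 to 25.1 CPM in controls and 11.2 to 50.0 CPM in tumors. Tumors 1, 2 and 5, with the highest Cdkn1a, held Trp53 at 11.2, 21.0 and 37.5 CPM, from 5, 10 and 4 UMIs. Igf2 was at 3.22 to 30.5 CPM in controls and 13.5 to 522 CPM in tumors. Oligodendrocyte markers summed to 10805 to 16242 CPM in controls and 27451 to 60686 CPM in tumors, neuron markers to 3969 to 4668 against 61.1 to 768 CPM, and stress genes to 180 to 287 against 215 to 1599 CPM. Their part in the result was not tested.

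In astrocytes 4 of 8 genes tested were called, against 36.6% of all genes tested. Cdkn1a was at 16.4, 2.28, 5.23 and 3.10 CPM in controls, from 1 to 3 UMIs each, and at 73.1, 173, 25.8, 274 and 168 CPM in tumors (log2 4.83, SE 0.81, adjusted p = 0.0011). The ratio of the summed UMIs was 29.4 (interval 14.2 to 73.4), and 44.4 without control 1. No tumor overlapped the controls, but tumor 3 came close to control 1, and limma voom gave an adjusted p of 0.121. Trp53 was higher here, at 21.9, 22.8, 18.3 and 12.4 CPM against 30.2, 98.0, 38.0, 88.5 and 84.1 CPM (log2 2.00, SE 0.46, adjusted p = 0.0054), and with free RNA subtracted the log2 fold change was about as large but missed the threshold (adjusted p = 0.0535). Phlda3 was at 15.7 to 27.3 CPM in controls and at 19.9, 255, 16.7, 259 and 116 CPM in tumors, so that tumors 1 and 3 lay within the control range and tumors 2, 4 and 5 far above it. Its log2 fold change was 2.87 (SE 0.85, adjusted p = 0.0194), a call lost without control 2, 3 or 4 (adjusted p 0.0574 to 0.0591). Bax was at 32.8 to 86.9 CPM and 112 to 430.4 CPM (log2 2.03, SE 0.45, adjusted p = 0.0045).

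The tumor astrocytes carried Igf2, a gene at 495 to 3301 CPM in transgene-positive cells, at 148 to 2448 CPM against 31.4 to 34.2 CPM in controls, and Cdkn2a was called upward in them as well (adjusted p = 0.005). Their Cdkn1a was at 0.51 to 2.11 times the free RNA. Whether tumor cells without a transgene UMI entered the class was not tested. Neuron markers summed to 3826 to 4926 CPM in control and 302 to 1515 CPM in tumor astrocytes, and stress genes to 157 to 328 against 315 to 1823 CPM. Their part in the result was not tested.

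Cells gated as neurons were the most numerous class of control brain, although their neuron markers lay below those of the free RNA, as given above. Cdkn1a was at 8.92, 6.49, 6.03 and 5.72 CPM in controls and at 27.0, 76.2, 56.2 and 82.2 CPM in tumors 1, 2, 3 and 5, which did not overlap (log2 2.90, SE 0.33, adjusted p = 0.0001). These tumor levels were 0.62 to 1.10 times those of the free RNA in the same tumors, and the control levels 0.73 to 1.63 times. Bax (log2 0.71, SE 0.19), Mdm2 (0.63, SE 0.17) and Trp53inp1 (1.05, SE 0.32) were also called, 4 of 8 genes tested against 11.4% of all genes tested. These 3 calls did not hold when most single mice were left out (adjusted p 0.0595 to 0.344), and tumor 5 had only 29 neurons. Tumor neurons carried Igf2 at 24.4 to 917 CPM against 16.5 to 21.2 CPM in controls, Cdkn2a was called upward in them (adjusted p = 0.00023), and the stress genes summed to 103 to 681 against 192 to 359 CPM. Their part in the result was not tested. In contrast to its level over all cells, Zmat3 was not lower in tumor neurons, at 52.3 to 60.5 CPM in controls and 60.5 to 103 CPM in tumors (log2 0.24, 95% interval −0.11 to 0.59). Its mean fell from 32.6 to 14.3 CPM in microglia (log2 −0.82, adjusted p = 0.0645) and from 46.4 to 24.7 CPM in astrocytes (−0.71, adjusted p = 0.0821). Both passed with library totals alone (−1.27, adjusted p = 0.00831, and −0.85, adjusted p = 0.0474), and each in some other alternatives. Untested means were 46.9 and 22.0 CPM in oligodendrocytes and 17.6 and 17.5 CPM in endothelial cells of controls and tumors.

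**Figure D2:**
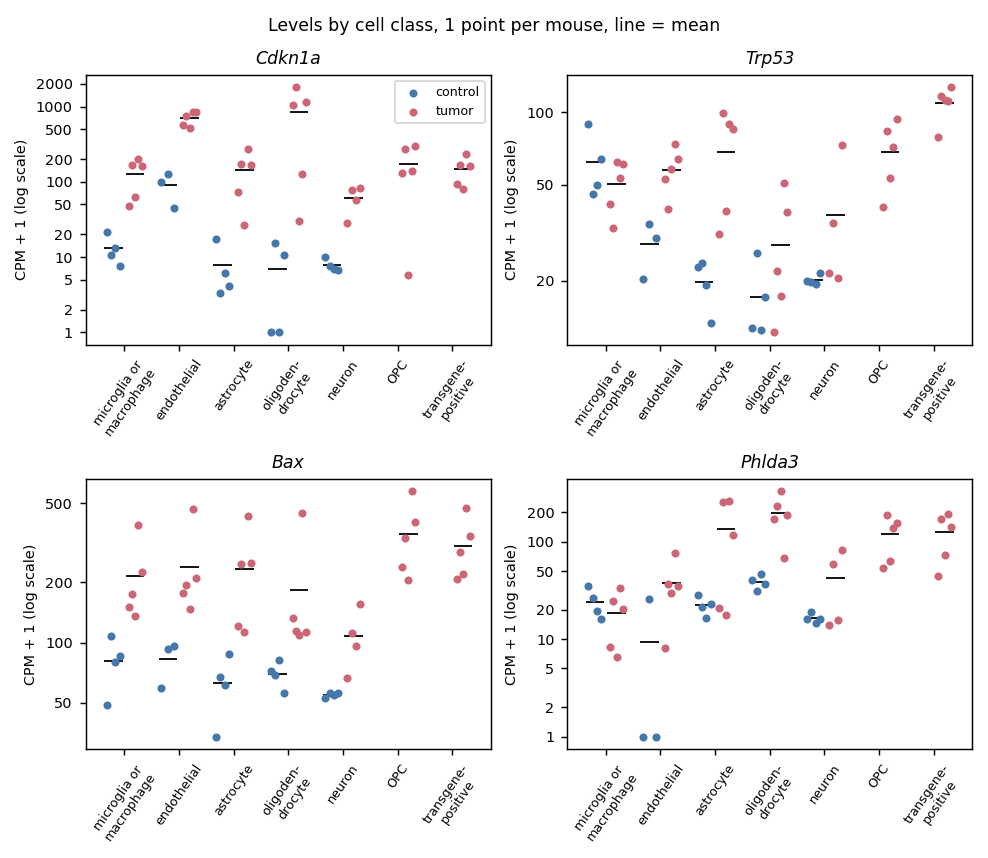
CPM + 1 (log axis) of Cdkn1a, Trp53, Bax and Phlda3 by cell class, 1 point per mouse with at least 20 cells of the class, lines at the mean, controls blue and tumors red. OPC (oligodendrocyte precursors) and transgene-positive cells were counted in tumors only. Tumor oligodendrocytes spread from 29.4 to 1832 CPM for Cdkn1a.

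**Figure D3:**
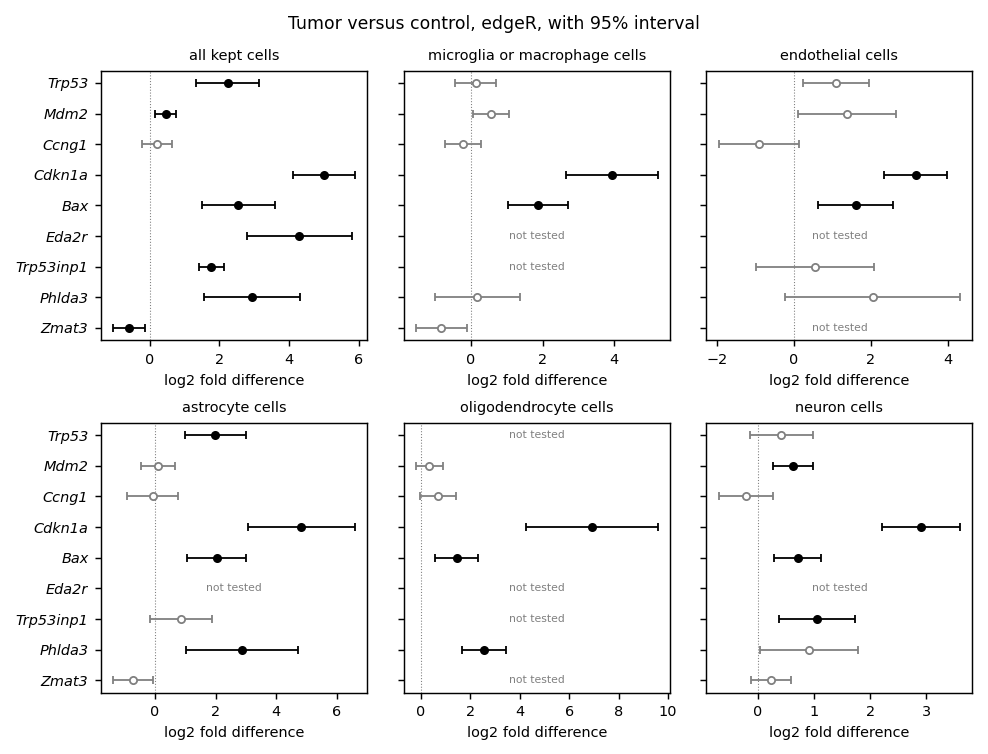
Log2 fold difference, tumor over control (x axis), of each gene by class, with its 95% interval computed from the edgeR F statistic. Filled points passed an adjusted p of 0.05, and genes too low to be tested are marked. Cdkn1a and Bax are filled in every panel.

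Among the other p53 targets, 11 of 17 tested differed in microglia (9 upward), 10 of 18 in astrocytes (8 upward), 2 of 16 in endothelial cells, 2 of 5 in oligodendrocytes and 6 of 25 in neurons (5 upward). The shares over all genes tested were 40%, 36.6%, 12.4%, 47.7% and 11.4% in the same order, so that the count in endothelial cells was about at the background and that in oligodendrocytes below it. Ddit4 was called upward in microglia (log2 2.81), astrocytes (2.62), oligodendrocytes (2.69) and neurons (1.43), and Btg2 in microglia (1.11), endothelial cells (1.80) and astrocytes (2.34). Plk2 was called downward in microglia (−1.24), astrocytes (−2.71) and oligodendrocytes (−3.42).

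Whether the tumor effect differed between microglia and endothelial cells was tested as an interaction. By edgeR 0 of 8 genes tested passed, as by DESeq2 and limma voom, and 0.845% of all genes passed by edgeR. At an unadjusted p below 0.05 there was 1 of the 8, Phlda3 (log2 difference −2.16, SE 0.92, unadjusted p = 0.0324, adjusted p = 0.353), and 1245 of all 10410 genes tested, a like share. For Cdkn1a the log2 difference of the effects was 0.30 (95% interval −0.94 to 1.55), for Bax 0.14 (−0.55 to 0.84) and for Trp53 −0.91 (−1.93 to 0.10); with library totals alone the sign for Bax turned.

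Within the tumors, cells with a Luc, IRES or fusion UMI numbered 83, 987, 99, 3801 and 1237, while the controls had 0, 1, 6 and 5 cells with such a UMI, all of IRES. The cells of a tumor were compared with each other class of the same tumor, with the mouse as a block. Trp53 was the 1 gene that was higher in transgene-positive cells against all 4 classes tested. It stood at 78.3, 116, 112, 111 and 127 CPM in tumors 1 to 5, against 39.5, 82.4, 52.6, 71.0 and 92.7 CPM in oligodendrocyte precursors. In every tumor the transgene-positive level was higher than that of the microglia, endothelial cells, astrocytes and oligodendrocyte precursors.

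The log2 difference for Trp53 was 0.59 (SE 0.21, adjusted p = 0.021) against microglia, 0.65 (SE 0.22, adjusted p = 0.0182) against endothelial cells, 0.70 (SE 0.21, adjusted p = 0.0315) against astrocytes and 0.86 (SE 0.25, adjusted p = 0.0159) against oligodendrocyte precursors. Transgene-positive cells held Trp53 at 1.78 to 6.54 times the free RNA of their tumor. The call was lost without tumor 5 against microglia (adjusted p = 0.0532), without tumor 1, 3, 4 or 5 against astrocytes (0.0533 to 0.15) and without tumor 1, 4 or 5 against precursors (0.055 to 0.0761), where library totals alone also ended it (0.0618). With free RNA subtracted the difference from astrocytes was larger, at 0.91, but missed the threshold (adjusted p = 0.0675). In tumor 4 the share taken as free RNA was 89.6% in transgene-positive cells and 80.8% in astrocytes.

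Cdkn1a in transgene-positive cells, at 94.0, 169, 79.2, 231 and 162 CPM, was lower than in the endothelial cells of each tumor (log2 −2.66, SE 0.50, adjusted p = 4.16e-05). Against oligodendrocyte precursors, which spread from 4.78 to 296 CPM, the log2 difference was 0.14 (95% interval −0.93 to 1.20), and against astrocytes 0.16 (−0.81 to 1.14). Against microglia it was −0.28 (−1.26 to 0.69), a sign that turned with library totals alone.

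Phlda3 was at 43.9, 172, 72.4, 193 and 139.7 CPM in transgene-positive cells, higher than in microglia (log2 2.31, SE 0.48) and endothelial cells (1.46, SE 0.48). Tumors 1 and 3 were the lowest, as over all kept cells and in astrocytes. Zmat3 was higher than in microglia (0.81, SE 0.21) and endothelial cells (0.71, SE 0.23), at 28.4 to 40.7 CPM, 0.79 to 1.15 times the free RNA of the same tumors. With free RNA subtracted both calls were lost (log2 1.12, adjusted p = 0.237, and 0.47, adjusted p = 0.695), and the endothelial call was also lost under a mitochondrial limit of 10% (adjusted p = 0.128). The share taken as free RNA was 20.3% to 89.6% in transgene-positive cells, 9.15% to 30.0% in tumor microglia and 8.94% to 22.5% in tumor endothelial cells. With shares so unlike, a call lost by the subtraction does not tell whether free RNA carried the level. Ccng1 was lower than in microglia (−0.81, SE 0.28), a call lost without tumor 1, 2 or 5 (adjusted p 0.0501 to 0.0853) and with library totals alone (0.388), and Trp53inp1 lower than in endothelial cells (−1.02, SE 0.27), and the latter call was lost without tumor 2 (adjusted p = 0.143), as was that of Phlda3 against endothelial cells (0.0578). For Bax the interval of the difference ran from −0.41 to 0.42 against microglia and from −0.45 to 0.42 against precursors. With library totals alone Bax was called higher than in microglia (log2 0.56, adjusted p = 0.0185). Against astrocytes its log2 difference was 0.45 (adjusted p = 0.183) and against endothelial cells 0.12 (adjusted p = 0.686).

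Thus 4 of 8 genes tested were called against microglia, where 43.8% of all genes were, 5 of 8 against endothelial cells (41%), 1 of 8 against astrocytes (8.35%) and 1 of 8 against oligodendrocyte precursors (13.1%). Microglial markers summed to 959 to 2158 CPM in the transgene-positive cells, against 336 to 711 CPM in tumor astrocytes and 168 to 513 CPM in precursors, and C1qa led the genes higher than in precursors and was second against astrocytes. Of the cells that passed the microglial gate, 6 of 258, 76 of 666, 5 of 352, 232 of 554 and 46 of 322 in tumors 1 to 5 held a Luc, IRES or fusion UMI and were counted as transgene-positive. In the astrocyte gate these were 36 of 548, 167 of 362, 30 of 264, 978 of 1181 and 288 of 815. In the precursor gate they were 0 of 24, 75 of 119, 6 of 48, 587 of 820 and 10 of 49. Astrocytes and precursors were thus the cells left in gates that many transgene-positive cells also passed. The precursors carried Igf2 at 13.2 to 2220 CPM. Whether tumor cells without a transgene UMI remained among them was not tested. Without cells of immune or vascular gates, an alternative chosen after seeing the data, the Trp53 differences were 0.63, 0.69, 0.74 and 0.90 against microglia, endothelial cells, astrocytes and precursors (adjusted p 0.0118 to 0.024, edgeR). Of the other p53 targets, 16 of 29 tested differed from microglia, 5 upward and 11 downward, 13 of 29 from endothelial cells, 4 upward and 9 downward, 6 of 29 from oligodendrocyte precursors, 5 upward and 1 downward, and 2 of 29, Bbc3 (log2 1.06) and Psrc1 (1.37), from astrocytes. Cdkn2a was higher than in microglia (1.69, SE 0.38) and endothelial cells (2.18, SE 0.41), and did not pass the test against astrocytes or precursors.

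**Figure D4:**
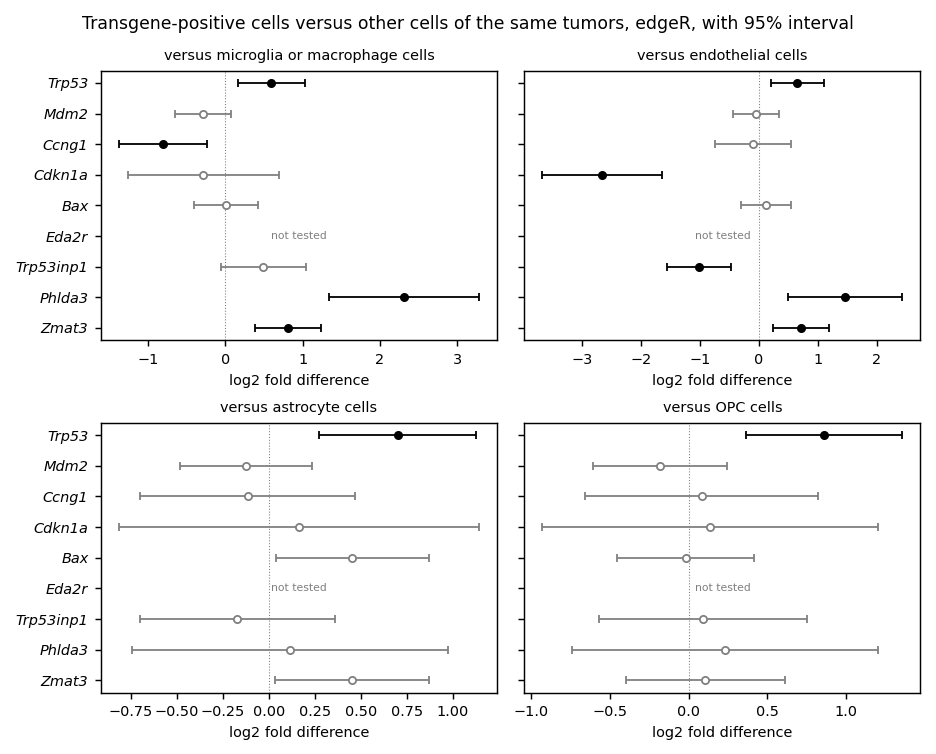
Log2 fold difference (x axis) of each gene between transgene-positive cells and 4 other classes of the same 5 tumors, with 95% intervals computed from the edgeR F statistic. Filled points passed an adjusted p of 0.05. Trp53 lies to the right of 0 in every panel, and Cdkn1a is lowest against endothelial cells.

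Cycling transgene-positive cells, those with at least 2 of 12 proliferation markers, were compared with the other transgene-positive cells in the 4 tumors that had at least 20 of them. Trp53 was at 135, 136, 124 and 138 CPM in cycling cells of tumors 2, 3, 4 and 5 and at 98.3, 101, 102 and 106 CPM in the others. Each tumor rose and no cycling level overlapped a non-cycling one, with a log2 difference of 0.42 (SE 0.09, adjusted p = 0.0073). The call was lost without tumor 2 (adjusted p = 0.0772) or tumor 4 (adjusted p = 0.0745). It was the 1 call among 9 genes tested, and 19.8% of all genes tested were called.

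Cdkn1a, whose product arrests the cycle, was higher in the cycling cells of 3 tumors, with 145, 323 and 189 CPM against 49.6, 171 and 114 CPM in tumors 3, 4 and 5, and lower in tumor 2, with 149 against 188 CPM. The difference did not pass the adjusted test (log2 0.59, SE 0.21, adjusted p = 0.0766). It did pass by limma voom (log2 0.66, adjusted p = 0.0263), with no filter on low counts (0.60, adjusted p = 1.31e-06), with at least 2 transgene UMIs per cell (0.51, adjusted p = 0.0156) and without tumor 2 (0.98, adjusted p = 0.00465). Ccng1 was higher in 3 tumors and lower in tumor 3, where the cycling level rests on 2 UMIs, without passing the test (log2 0.32, SE 0.15, adjusted p = 0.173). It did pass with at least 2 transgene UMIs per cell (0.63, adjusted p = 0.00384) and without tumor 3 (0.41, adjusted p = 0.0391). Bax did not pass (log2 0.19, adjusted p = 0.262) but did by limma voom (0.27, adjusted p = 0.0397) and without tumor 3 (0.28, adjusted p = 0.0375). Trp53inp1 was lower in the cycling cells of all 4 tumors (log2 −0.36, SE 0.16, adjusted p = 0.135). Mdm2 differed by 0.01 (95% interval −0.29 to 0.31), a sign that turned with library totals alone.

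Cycling cells were deeper, with medians of 5262 to 8810 UMIs per cell against 3877 to 6396.5 in the same 4 tumors. A Trp53 UMI was present in 48.7% to 63.5% of cycling and 31.2% to 47.9% of non-cycling cells. Thinned to 1500 UMIs the shares were 18.2%, 9.52%, 17.2% and 20.1% in cycling and 13%, 11.4%, 14.1% and 13.5% in non-cycling cells of tumors 2 to 5, so that tumor 3, with 22 cycling cells, did not keep the direction. Against the same 19.8% of all genes, 11 of 29 other targets differed, among them Gtse1 (log2 2.93) and Psrc1 (2.00) upward, both genes of the dividing cell, and Plk2 (−0.84) and Sesn1 (−0.57) downward. Of the regulators 5 of 11 differed, with Chek1 (2.76) and Chek2 (1.28) the largest.

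**Figure D5:**
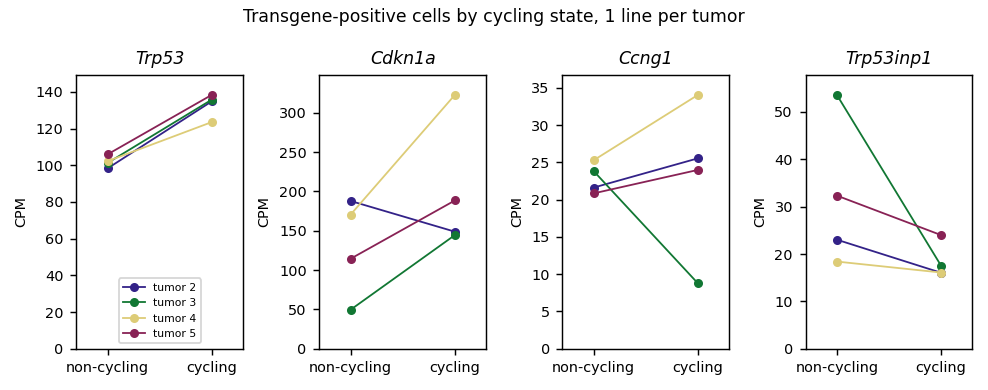
CPM (y axis, linear from 0) of Trp53, Cdkn1a, Ccng1 and Trp53inp1 in non-cycling and cycling transgene-positive cells, 1 line per tumor for tumors 2 to 5. Trp53 is higher in the cycling cells of each tumor, and Trp53inp1 lower in each, without passing the test.

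Across the 62 sums of a mouse and a class with at least 20 cells, Trp53 varied most like Bax among the 9 genes (Pearson r = 0.71 of log2(CPM + 10)) and less like Cdkn1a (0.36) or Mdm2 (−0.21). These values describe sums that share mice and free RNA. Outside the set, among 10887 genes, the patterns most like Trp53 were those of Snrpg (0.85) and Snrpe (0.84), 2 spliceosome proteins, the histone variant H2afz (0.83), the kinase Akt1 (0.83) and 0610010K14Rik (0.82). Those most like Cdkn1a were Nfkbia (0.83), the inhibitor of NF-κB, the translation factors Eif6 (0.80) and Eif1 (0.80), Btf3 (0.78) and Phf5a (0.75).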

How the data were processed

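Libraries of 5 tumor and 4 control brains were sequenced with 10x Genomics 5′ chemistry. The deposited values were raw UMI counts per gene and barcode, which the authors made with Cell Ranger 7 against mm10, per the submitters' processing notes. These notes also name Scanpy 1.8.2. A matrix header named a Cell Ranger version other than 7, so the version used was unclear. The gene lists and members were chosen with earlier results of these data known.

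The 10000 largest barcodes of a library were filtered to 200 to 6000 genes, and a 2-component Gaussian mixture on mitochondrial share and gene number removed the poorer component. Doublets were then removed, 20 to 309 per library. The kept cells held 5900868 to 37615459 UMIs per library. The limit set by the mixture differed between libraries. The removed component averaged 3.68% and 4.84% mitochondrial UMIs in tumors 4 and 5 and 12.4% to 22.4% in the other libraries. Kept cells had medians of 2.11% to 9.87%. A limit of 10% kept 4287, 9177 and 9138 cells in tumors 3, 4 and 5 and 1254 to 5052 in the others. A cell was gated to a class if at least 0.5 of the markers of the class were detected, with a lead of 0.1 over every other class, a gate set after seeing the data. Cells with at least 1 Luc, IRES or fusion UMI formed the transgene-positive class.

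Counts were summed per library and class (at least 20 cells, at least 3 libraries a group) and tested with edgeR 4.0.16 in R 4.3.3 (quasi-likelihood, TMM, filterByExpr, Benjamini-Hochberg over all genes tested, threshold 0.05). Adjusted p-values are from edgeR unless another tool is named. Comparisons within tumors had the mouse as block, since both classes came from the same mouse. Alternatives used DESeq2 1.42.0 and limma 3.58.1 (voom), and the tests were first run on simulated counts. Named genes were the members, and at most 3 called genes of the smallest p in each direction from each list of other targets and of regulators. The replicate numbers of tumor and control libraries did not pair them. At most 0.262% of barcodes were shared by any of 28 library pairs, control 4 not compared because its barcode list did not match its matrix. Of 16 pairs of replicates the lowest chi-square per degree of freedom was 4.11.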

Additional observations from a re-analysis of the deposited data

Results flagged for a closer look

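Of 116 groups of levels examined, 7 had a mouse far from the others by Dixon's criterion, and chance gives about 1 in 20. Bax was highest in tumor 4 in endothelial cells, at 467 CPM against 146 to 211 CPM in the other tumors (409 UMIs), and in oligodendrocytes, at 445 CPM against 108 to 132 CPM (80 UMIs). The free RNA of tumor 4 held Bax at 287 CPM, the highest of the 9 libraries. Zmat3 was lowest in control 3, at 49.3 CPM over all kept cells against 58.3 to 60.0 CPM in the other controls, and at 52.3 CPM in neurons against 60.2 to 60.5 CPM. Trp53 in non-cycling transgene-positive cells was lowest in tumor 1, at 64.4 CPM against 98.3 to 105.9 CPM, from 16 UMIs. Mdm2 in oligodendrocyte precursors was highest in tumor 3, at 71.7 CPM against 38.8 to 45.0 CPM, from 15 UMIs. Eda2r in cycling cells was lowest in tumor 2, at 2.08 CPM against 4.09 to 4.38 CPM, from 7 UMIs.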

How the results depend on the processing

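Of 35 calls of a member, 14 were kept in every alternative in which they were tested and 0 reversed. Members called are given below where the count moved by over 1.5 times, and smaller changes in the same alternatives are not listed except for limma voom and the replicate block. With library totals alone there were 4 rather than 2 in microglia, 1 rather than 2 in endothelial cells and 0 rather than 1 for transgene-positive cells against oligodendrocyte precursors. The calls over all genes moved too. Of 8680 genes in microglia, library totals alone called 859 upward and 3096 downward, rather than 1612 and 1862. In endothelial cells these were 326 and 577 of 7008, rather than 450 and 418. For the other settings such counts are not listed, so their member counts have no background beside them. With limma voom there were 1 of 2 in endothelial cells, 1 of 4 in astrocytes, 0 of 1 against astrocytes, and 3 rather than 1 in cycling cells, and by smaller steps 3 rather than 2 in microglia, 2 of 3 in oligodendrocytes, 3 of 4 in neurons and 3 of 4 against microglia. With no filter on low counts there were 1 rather than 4 in neurons and 2 rather than 1 in cycling cells. Cells under 10% mitochondrial UMIs gave 2 in neurons and 0 against precursors, and 1 more marker gave 2 in neurons. At least 2 transgene UMIs gave 3 in cycling cells. Without the mouse block there were 2 of 4 against microglia, 3 of 5 against endothelial cells, and 0 against astrocytes, against precursors and in cycling cells. The replicate number as a block (correlations of same-numbered libraries −0.00327 to 0.0500, 4 pairs) gave 7 of 8 over all kept cells, 1 of 4 in neurons and no other count changed. Among alternatives chosen after seeing the data, a lead of 0.2 gave 2 in astrocytes, 1 in oligodendrocytes (Bax missed the threshold and Cdkn1a was not tested) and 2 in neurons, and free RNA subtracted gave 2 in astrocytes (Trp53 missed the threshold and Phlda3 was not tested), 2 against microglia, 3 against endothelial cells and 0 against astrocytes. Leaving out 1 mouse gave 6 to 8 over all kept cells, 2 to 3 in microglia, 1 to 2 in endothelial cells, 3 to 5 in astrocytes, 2 to 4 in oligodendrocytes, 1 to 4 in neurons, 2 to 4 against microglia, 3 to 5 against endothelial cells, 0 to 1 against astrocytes, 0 to 1 against precursors, 0 to 3 in cycling cells and 0 to 0 for the interaction. The causes were not tested.

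Library totals alone moved the median log2 fold change of all genes by −0.24 over all kept cells, −0.44 in microglia, −0.16 in endothelial cells, −0.12 in astrocytes, −0.18 in oligodendrocytes, 0.53 against microglia, 0.28 against endothelial cells, −0.15 against precursors and −0.22 for the interaction. The share of calls that were higher was then 21.7% rather than 46.4% in microglia, 36.1% rather than 51.8% in endothelial cells, 37.6% rather than 48.2% in oligodendrocytes, 60.3% rather than 45.1% in neurons, 75.9% rather than 47.3% against microglia, 63.8% rather than 47.5% against endothelial cells, 28.0% rather than 47.9% against precursors and 13.9% rather than 25% for the interaction. Endothelial cells and the interaction had too few control cells for a value under 10% mitochondrial UMIs or a lead of 0.2, and free RNA was not subtracted in neurons or over all kept cells. Low counts limit Eda2r and the control levels of Cdkn1a in endothelial cells, astrocytes and oligodendrocytes.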

Other observations

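Ependymal, mural, neuroblast and choroid plexus cells reached 20 cells in 3 or fewer tumors, and no comparison of them was made. Ependymal cells of tumor 2, 22 cells, held Cdkn1a at 881 CPM, Mdm2 at 241 CPM, Phlda3 at 325 CPM and Ccng1 at 107 CPM, and Trp53 at 11.2 CPM. Mural cells of tumors 2, 3 and 4 held Cdkn1a at 418, 124 and 246 CPM and Bax at 343, 64.6 and 488 CPM. Neuroblasts of tumors 2, 3 and 5 held Trp53 at 92.8, 73.0 and 117 CPM and Cdkn1a at 119, 46.3 and 98.6 CPM. Choroid plexus cells held Cdkn1a at 12.1 CPM in control 3 and 36.7 CPM in tumor 1.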
